A study of Mus musculus with 26 samples.

Results

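The genes described here encode the RNA polymerases and the general transcription factors that place them at promoters. They were chosen by symbol alone: every gene present in all 3 expression tables whose symbol marks it as a subunit of RNA polymerase I, II or III (Polr1, Polr2, Polr3), a TBP-associated factor (Taf and a number) or a general factor (Gtf2, Gtf3). This gave 74 genes, 0.303% of the 24412 symbols listed. By textbook role, 3 belong to polymerase I only, 2 to polymerases I and III, 5 to all 3 polymerases, 8 to polymerase II and 10 to polymerase III. A further 4 belong to SL1, the TAF complex of polymerase I, and 16 to TFIID, while 2 are SAGA-type TAFs (Taf5l, Taf6l) and 1 is Taf15, an RNA-binding protein that shares only the TAF name. The remaining 23 are split into 3 of TFIIA, 1 of TFIIB, 2 of TFIIE, 2 of TFIIF, 5 of TFIIH, 3 of the TFII-I family and 7 of TFIIIA and TFIIIC. TBP itself does not match the symbol rule and is treated as a neighbouring gene.

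The samples are mouse oocytes and preimplantation embryos of the C57BL/6J strain, read by RNA-seq of polyA RNA. Females with Zp3-Cre, a recombinase driven by a promoter active in growing oocytes, and floxed alleles of both Kdm3a and Kdm3b (written f/f) lose these H3K9 demethylases in the oocyte. Their oocytes, fertilised in vitro with wild-type sperm, gave maternal double-knockout embryos (mDKO), which still receive intact paternal copies; the label control carries no further genotype. The titles of the L2C knockout libraries say only DKO, while their genotype label says maternal. The uninjected series had control and mDKO samples at 3 stages: the ovulated egg (MII oocyte), the early 2-cell embryo (E2C) and the late 2-cell embryo (L2C). Injected E2C embryos were control with mCherry, or mDKO with mCherry, Kdm3aWT or Kdm3aHA, and injected wild-type 4-cell embryos (4C) received mCherry, Kdm3aWT or Kdm3aHA. The sources used here give neither the meaning of HA nor the ages of the females. Each of the 13 groups has 2 libraries, each from 12 to 20 pooled embryos.

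A gene is transcribed once a polymerase has been brought to its start site. Polymerase I makes the large ribosomal RNA precursor, polymerase II makes messenger RNA, and polymerase III makes transfer RNA, 5S ribosomal RNA and other short RNAs. At polymerase II promoters TFIID, built of TBP and TAFs, marks the start, TFIIA and TFIIB steady it, and TFIIF, TFIIE and TFIIH bring in the polymerase and open the DNA. In the mouse the egg is almost silent, and the embryo's own genome is switched on in a minor wave before and around the first division and in a major wave in the late 2-cell embryo. Transcripts seen in the egg and early embryo are therefore largely inherited from the oocyte.

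Values are TPM, each gene's share of the transcripts after correction for transcript length, scaled to the same total in every library, so levels may be compared between genes. Differences are on the scale log2(TPM + 1), with their standard error (SE), and understate the change of genes near or below 1 TPM. A gene is called higher or lower when limma's adjusted p over all genes tested is under 0.05. Each comparison has 2 libraries against 2, for which an exact permutation test of a single gene could not go below p = 0.333. TPM keeps no depth, so the sequencing depth is unknown. Because all libraries sum to about the same total, a TPM is a share of the RNA, and fewer transcripts per embryo cannot be told apart from more RNA of other genes. The labels do not say if the pools within a group were collected apart, so p-values measure the spread between these pools, which may be technical.

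Libraries detected 7649 to 12396 genes at 1 TPM or more, and replicates correlated at 0.968 to 0.995 across genes on the log2 scale. One library stood apart: the 4C mCherry replicate 2, with 7649 genes and 66 members at 1 TPM or more, and a median member level of 17.4 TPM against 49.4 in replicate 1. Kdm3a was 8.08 and 8.83 TPM in control MII oocytes and 0.725 and 0.718 in mDKO, and Kdm3b was 26.6 and 24.97 against 1.75 and 1.87. At L2C Kdm3a was 34.0 and 43.8 TPM in control against 28.4 and 26.2 in mDKO. The 8 oocyte and early embryo markers checked had a summed level of at least 14940 TPM in every library. In 4C nearly all of that sum was Dppa3, at a mean of 26600 TPM after mCherry. There Zp2 was at 1.76 TPM, Bmp15 at 1.35 and Nlrp5 at 2.16.

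In unmanipulated control samples the machinery was carried in the egg at modest levels and rose at the late 2-cell stage. The median member was at 19.3 and 17.8 TPM in the 2 control MII libraries, 21.8 and 19.6 at E2C, and 44.3 and 42.4 at L2C. Summed over all 74 genes, the level was 6948 and 6694 TPM at MII, 10680 and 10760 at E2C and 19920 and 19650 at L2C. Most of the sum came from few genes: at L2C 24 and 25 members exceeded 100 TPM and 5 exceeded 1000 TPM. The most abundant member was Polr2c, a subunit of the polymerase II assembly core, at MII, and Taf9, a histone-fold TAF of TFIID and SAGA, at E2C and L2C. Taf9 shares 1026 exonic bases with Ak6 on the same strand, so reads may be split between them; Ak6 itself was at 24.8 and 29.5 TPM at E2C and 418 and 404 at L2C in control.

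The egg-to-E2C step remodelled the set in both directions. Of 73 members tested in control, 35 were higher and 30 lower at E2C than at MII, 89.0% called against 72.1% of all genes tested, and the members' median difference was 0.33 against 0.03 for all genes. Scaling by size factors, estimated from all genes, moved the median of all genes to 0.16 (0.155 before rounding) and gave 36 higher and 28 lower. All 5 subunits shared by the 3 polymerases rose, from Polr2f at 1.03 ± 0.10 (SE) to Polr2k, the small zinc-binding subunit, at 2.94 ± 0.16. Polr2k went from 15.2 and 11.4 TPM to 124 and 94.9. TFIID was mixed, with 7 of 16 higher and 9 lower. Taf12, a histone-fold TAF, rose from 38.4 and 38.2 TPM to 393 and 382 (3.31 ± 0.11, adjusted p = 1.28e-09), while Taf4a, a large scaffold TAF, fell from 321 and 318 TPM to 21.8 and 18.8 (-3.92 ± 0.18, adjusted p = 8.48e-09). In neither gene did the stages overlap. Polr2a, the catalytic subunit of polymerase II, fell from 24.2 and 26.1 TPM to 1.45 and 2.07 (-3.25 ± 0.23), and Gtf3c1, the largest subunit of the polymerase III factor TFIIIC, from 41.2 and 46.3 to 1.88 and 1.16 (-4.16 ± 0.24). Taf15 fell from 106 and 85.9 TPM to 5.91 and 5.23.

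MII and E2C libraries were made with different kits, so the kit and the stage cannot be told apart in that step. Across the 73 members the difference ran against the length of the longest coding transcript (Spearman's rho -0.491, a description across genes, which are not replicates). The longest-transcript genes among those named, Gtf3c1 with 6961 bases and Polr2a with 6740, were among those that fell, and Polr2k with 601 bases among those that rose. The level itself was weakly related to length in control MII oocytes (rho -0.121, 74 genes) and more so in control E2C (-0.440) and L2C (-0.489). The part of transcript length in the result was not tested.

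From E2C to L2C in control embryos, 48 of 73 members rose and 13 fell. That is 83.6% called against 65.6% of all genes, and the median difference was 1.19 against 0.02 for all genes. Scaling by size factors moved the median of all genes from 0.02 to 0.13 and left 48 members higher and 12 lower. All 3 polymerase I subunits, both subunits shared by I and III, all 5 shared by the 3 polymerases and 7 of 10 polymerase III subunits rose. Polr1c, a subunit of the assembly core of polymerases I and III, rose from 13.4 and 20.9 TPM to 354 and 398 (4.41 ± 0.26, adjusted p = 7.39e-08). Polr1e, a subunit of polymerase I only, rose from 4.73 and 3.77 TPM to 85.0 and 77.3 (3.97 ± 0.18). Polr2h, a subunit held in common by the 3 enzymes, rose from 59.8 and 70.1 TPM to 841 and 685 (3.53 ± 0.21), and Polr3k, the small polymerase III subunit that helps end transcription, from 74.2 and 72.4 to 561 and 625 (2.997 ± 0.143). Each of these had every L2C library above every E2C library.

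Polymerase II and its partners moved less evenly. In polymerase II 6 of 8 members, with the associated protein Polr2m counted, rose and 2 fell, Polr2c (-0.89 ± 0.09) and Polr2g (-0.58 ± 0.12). Polr2d, which forms the stalk of the enzyme together with Polr2g, rose (1.87 ± 0.14). TFIID had 7 members higher and 4 lower of 16, with a median difference of 0.03. Gtf2b, which is TFIIB and positions the polymerase at the start site, fell from 601 and 523 TPM to 162 and 127 (-1.96 ± 0.14, adjusted p = 2.67e-07). Gtf2a2, the small subunit of TFIIA, fell from 865 and 875 TPM to 387 and 378 (-1.18 ± 0.10). Taf9b, a paralogue of Taf9, fell from 319 and 332 TPM to 49.0 and 45.6 (-2.76 ± 0.15), the largest fall among the members. The sources used here give no kit for the L2C libraries, and its part was not tested.

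**Figure D1:**
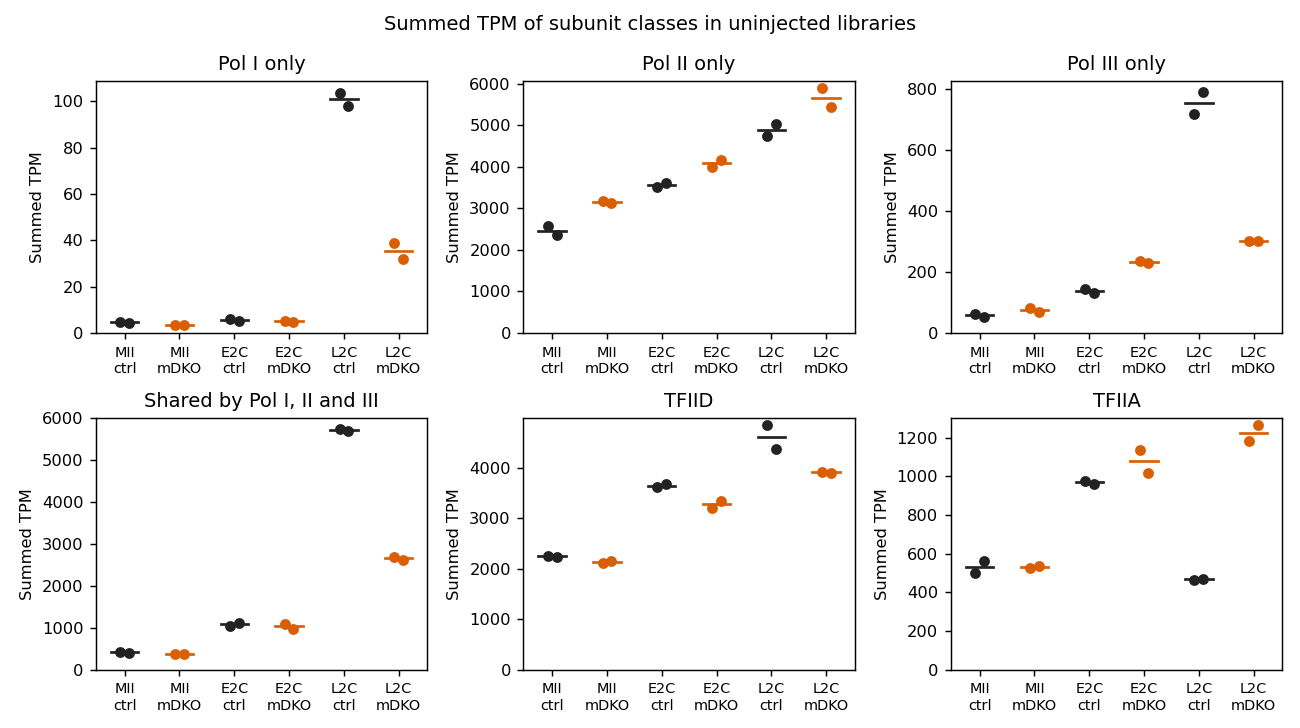
Summed TPM of the members of 6 classes in the 12 uninjected libraries (points, 2 per group; line, their mean; black, control; orange, mDKO). In L2C the shared, polymerase I and polymerase III sums are lower in both mDKO libraries, while the TFIIA sum is higher, at 1186 and 1264 TPM against 465.6 and 471.1.

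In MII oocytes, of 70 members tested, 2 were higher and 1 lower in mDKO, 4.29% against 4.25% of all genes tested (0.845% higher and 3.41% lower). With the replicate number as a block more members were called, as given in the last section. The labels do not say what libraries of equal number share. Gtf2ird1, a TFII-I family DNA-binding factor, was at 42.6 and 39.2 TPM in control against 9.30 and 9.01 in mDKO. Both mDKO libraries were far below both controls (-2.04 ± 0.14, adjusted p = 0.00515), and the call held without each library in turn. Polr3k was at 10.8 and 9.33 TPM in control against 32.9 and 25.3 in mDKO (1.43 ± 0.19, adjusted p = 0.0229). Polr2j, a small subunit of the polymerase II core, was at 618 and 562 TPM in control against 917 and 882 in mDKO (0.61 ± 0.08, adjusted p = 0.0204). The calls of Polr3k and Polr2j were lost when control replicate 2 or either mDKO library was left out, and 1 member was then called, as it was with no filter on low values; the adjusted p without a library was 0.0593 to 0.139 for Polr3k and 0.0787 to 0.125 for Polr2j. Members not passing ranged up to Gtf2h1 of TFIIH, at 9.02 and 4.38 TPM in control against 22.4 and 14.8 in mDKO.

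At E2C 11 of 64 members tested differed, 8 higher and 3 lower in mDKO, 17.2% against 14.4% of all genes (5.38% higher and 8.99% lower). All 3 calls made in the egg were made again in the same direction, in libraries that share no sample with the MII ones. Gtf2ird1 was at 25.6 and 23.1 TPM in control against 5.13 and 6.57 in mDKO (-1.90 ± 0.22, adjusted p = 0.00158). Polr3k was at 74.2 and 72.4 TPM in control and 163 in each mDKO library (1.14 ± 0.14, adjusted p = 0.00168). Polr2j was at 1059 and 1128 TPM against 1635 in each mDKO library (0.58 ± 0.10). The control and mDKO libraries did not overlap for any of these genes.

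Of the 3 SL1 members tested at E2C, 2 were higher. Taf1a rose from 56.1 and 52.4 TPM to 80.8 and 91.6 (0.66 ± 0.16), Taf1b from 11.8 and 9.78 to 20.0 and 28.6 (1.09 ± 0.24), and Taf1d was at 69.1 and 60.2 in control and 66.9 and 57.1 in mDKO. Gtf2b was at 601 and 523 TPM in control against 887 and 914 in mDKO (0.68 ± 0.12, adjusted p = 0.00802). Gtf2a1l, the germ-cell paralogue of the large TFIIA subunit, was at 6.09 and 5.16 TPM against 12.4 and 13.2 (1.06 ± 0.23). TFIID had 2 members higher and 2 lower of 15. Taf7, a TAF that binds Taf1, rose from 125 and 118 TPM to 181 and 179, and Taf13, a histone-fold TAF, from 270 and 274 to 418 and 347. Taf12 fell from 393 and 382 TPM to 269 and 279, and Taf9 from 1769 and 1859 to 1230 and 1477. Ak6, which overlaps Taf9, was also lower, at 24.8 and 29.5 TPM against 13.8 in each mDKO library (-0.92 ± 0.20). No polymerase I subunit and none of the shared subunits passed.

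Without 1 of the E2C control libraries few members were called: 3 without replicate 1 and 2 without replicate 2. Gtf2ird1 and Polr3k kept the call without each of the 4 libraries, and the other 9 lost it in at least 1 fit. With no filter on low values these were also the 2 members called, and the other 9 had an adjusted p of 0.057 to 0.157. The cumulus and granulosa markers moved with the genotype at E2C: their summed level was 111 and 108 TPM in control against 194 and 229.7 in mDKO. Of 12 listed, 3 were tested and 2 were higher, and most of the sum was Serpine2, at a mean of 87.2 against 184 TPM. Cyp11a1 was also higher, at a mean of 0.208 against 1.60 TPM (adjusted p = 0.0369). Cyp19a1, at 20.0 against 23.7, did not pass. Foxl2, Amh and Lhcgr were at or below 0.188 TPM in all 4 libraries. In MII oocytes these genes were low too, at group means of at most 0.44 TPM, although the list summed to 903 to 1028 TPM there. In pooled embryos, fewer cells of a type and less RNA per cell cannot be told apart, and the part of such cells in the result was not tested.

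**Figure D2:**
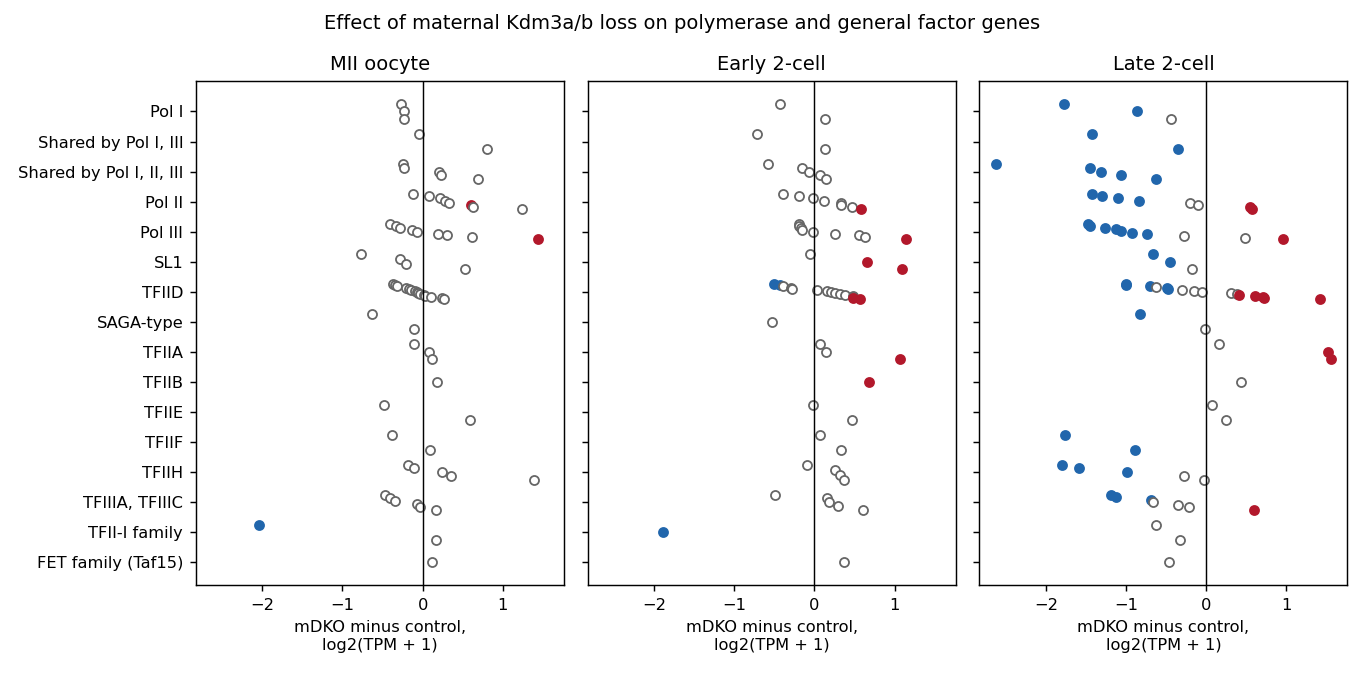
Difference between mDKO and control on the log2(TPM + 1) scale for every member tested in MII oocytes, E2C and L2C, by class (1 point per gene; red, called higher; blue, called lower; open, not passed). In MII and E2C the lowest point is Gtf2ird1, at -2.04 and -1.90, and the highest is Polr3k, at 1.43 and 1.14, whereas at L2C the 5 shared subunits all lie to the left and Gtf2a2 and Gtf2a1l to the right, at 1.55 and 1.52.

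At L2C the set was broadly lower in mDKO. Of 72 members tested, 36 were lower and 11 higher, 65.3% called. Over all genes tested 42.4% were called, 23.3% lower and 19.1% higher. The members' median difference was -0.49 against a median of 0.00 for all genes (-0.001 before rounding), and scaling by size factors gave 33 lower and 10 higher. The summed level of the 74 genes was 19920 and 19650 TPM in control against 16040 and 15640 in mDKO. Replicates were close: of the 40 called members that the naming rule picked, 29 were called without each of the 4 libraries in turn. The 11 that were not are Gtf3a, Polr1a, Polr1d, Polr3a, Polr3f, Taf1, Taf1b, Taf1d, Taf5, Taf5l and Taf7, and the count of called members ranged from 37 to 43.

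All 5 of the subunits shared by I, II and III fell, with a median of -1.31, and both subunits shared by I and III fell. Polr2h had the largest difference of any member. It was at 841 and 685 TPM in control L2C and 118 and 127 in mDKO, and the groups did not overlap (-2.62 ± 0.13, adjusted p = 1.46e-04). Polr2k went from 1146 and 1147 TPM to 402 and 435 (-1.45 ± 0.10), and Polr2l, a small zinc-binding subunit, from 1139 and 1151 to 502 and 424 (-1.31 ± 0.12). Polr2e was at 356 and 409 TPM against 197 and 167 (-1.07 ± 0.13), and Polr2f at 2261 and 2294 against 1479 and 1457 (-0.63 ± 0.09). The class sum was 5744 and 5686 TPM in control against 2698 and 2610 in mDKO. Polr1c fell from 354 and 398 TPM to 155 and 125 (-1.43 ± 0.14, adjusted p = 4.56e-04), and Polr1d, its partner in the assembly core, from 545 and 510 to 390 and 440 (-0.35 ± 0.11), a call lost without any 1 library (adjusted p 0.0557 to 0.245).

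Polymerases I and III were lower in most of their own subunits too. Of the 3 polymerase I subunits, Polr1e fell from 85.0 and 77.3 TPM to 24.99 and 21.1 (-1.78 ± 0.15) and Polr1a, the catalytic subunit, from 6.59 and 8.87 to 3.87 and 3.62 (-0.87 ± 0.24). Without control replicate 2, or without either mDKO library, the call of Polr1a was lost (adjusted p 0.056 to 0.0919). Polr1b, the second-largest subunit, was at 12.1 and 11.8 TPM in control against 9.99 and 7.30 in mDKO and did not pass. Of the 10 polymerase III subunits, 7 were lower and 1 higher. Polr3k fell from 561 and 625 TPM to 214 and 211 (-1.47 ± 0.11, adjusted p = 2.30e-04), Polr3g from 44.0 and 39.5 to 18.9 and 18.03 (-1.13 ± 0.15), and Polr3b, the second-largest subunit, from 13.4 and 15.5 to 5.62 and 3.85 (-1.44 ± 0.23). Polr3e, Polr3d and Polr3a, the catalytic subunit, were also lower. The call of Polr3a was lost without control replicate 2 (adjusted p = 0.148) and without mDKO replicate 1 (adjusted p = 0.156). Polr3f was higher, at 6.43 and 3.23 TPM in control against 10.01 and 9.77 in mDKO (0.96 ± 0.30), but was called in only 1 of the 4 fits without 1 library. Polr3c and Polr3gl did not pass.

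Polymerase II's own members split. Of 8, with the associated protein Polr2m counted, 4 were lower and 2 higher. Polr2i, a subunit with a role in start-site choice and fidelity, fell from 313 and 324 TPM to 129 and 108 (-1.42 ± 0.13), and Polr2d, a stalk subunit, from 821 and 748 to 342 and 294 (-1.30 ± 0.12). Polr2m, a polymerase-associated protein, fell from 13.5 and 20.4 TPM to 7.41 and 7.09 (-1.10 ± 0.24), and Polr2b, the second-largest subunit, from 66.6 and 45.3 to 31.2 and 29.2 (-0.84 ± 0.20). Polr2c and Polr2j were higher, Polr2c from 707 and 774 TPM to 1064 and 1089 (0.54 ± 0.10) and Polr2j from 2287 and 2554 to 3740 and 3446 (0.57 ± 0.11). Polr2a, at 6.18 and 5.48 TPM in control against 6.12 and 3.93 in mDKO, and Polr2g, at 528 and 561 against 563 and 454, did not pass. The sum of the class was 4742 and 5032 TPM in control against 5884 and 5432 in mDKO. Exons of Polr2c overlap Dok4, those of Polr2i Tbcb and those of Polr2j Lrwd1, each on the other strand, and whether strand was used in counting is not given; Dok4 and Lrwd1 did not exceed 12.6 TPM in any L2C library.

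TFIID showed as many members higher as lower, 5 and 5 of 16, with a median of -0.11. The lower ones were Taf4b, the gonad-enriched paralogue of Taf4a (44.6 and 45.2 TPM against 20.1 and 23.9, -1.003 ± 0.156), Taf1, the largest TAF (-1.001 ± 0.25), Taf9 (3369 and 2885 against 1951 and 1887, -0.70 ± 0.11), Taf11 (-0.50 ± 0.16) and Taf7 (-0.47 ± 0.13). The higher ones were Taf9b (49.0 and 45.6 TPM against 121 and 135, 1.42 ± 0.13, adjusted p = 3.90e-04), Taf10 (406 and 409.5 against 630 and 721, 0.72 ± 0.11), Taf12 (208 and 245 against 366 and 370.5, 0.70 ± 0.12), Taf5 (35.8 and 35.1 against 51.0 and 58.4, 0.61 ± 0.14) and Taf13 (303 and 252 against 398 and 339, 0.41 ± 0.14). Ak6, which overlaps Taf9, was lower too, at 417.5 and 403.5 TPM in control against 132.8 and 140 in mDKO (-1.58 ± 0.11, adjusted p = 1.91e-04). Taf10 and Taf12 are histone-fold TAFs found in both TFIID and SAGA, and Taf5 is a core scaffold TAF. The calls of Taf1 were lost without control replicate 1 (adjusted p = 0.0731) or mDKO replicate 2 (0.0725), that of Taf5 without mDKO replicate 2 (0.104) and that of Taf7 without control replicate 1 or either mDKO library (0.0724 to 0.086). Taf11 and Taf13 were not picked by the naming rule, so their calls were not followed in the fits without a library. The same holds for the L2C calls of Polr2b, Polr2e, Polr2f, Polr3d and Polr3e given above. Taf2, Taf3, Taf4a, Taf6, Taf7l and Taf8 did not pass. Of the SAGA-type TAFs, Taf5l was lower (12.5 and 14.2 TPM against 5.88 and 8.50) and Taf6l, at 2.77 and 2.17 against 2.303 and 2.51, did not pass. The call of Taf5l was lost without control replicate 2 (adjusted p = 0.0875) and without mDKO replicate 1 (0.136).

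Among the other factors TFIIA went one way and TFIIF and TFIIH the other. Gtf2a2 rose from 387 and 378 TPM to 1087 and 1164 (1.55 ± 0.10, adjusted p = 1.89e-04) and Gtf2a1l from 1.97 and 1.06 to 5.27 and 6.998 (1.52 ± 0.29), while the ubiquitous large subunit Gtf2a1 was at 76.2 and 91.6 against 93.5 and 93.1. Both TFIIF subunits were lower: Gtf2f1 fell from 90.1 and 98.7 TPM to 30.8 and 23.6 (-1.77 ± 0.16) and Gtf2f2 from 134 and 147 to 68.2 and 83.0 (-0.89 ± 0.14). Of the 5 TFIIH genes, Gtf2h5, the smallest subunit, fell from 448 and 482 TPM to 142 and 123 (-1.80 ± 0.12), Gtf2h2 from 55.6 and 58.6 to 20.4 and 16.3 (-1.59 ± 0.16) and Gtf2h1 from 84.2 and 82.4 to 42.5 and 40.5 (-0.99 ± 0.13), and Gtf2h3 and Gtf2h4 did not pass. TFIIB (Gtf2b) was at 162 and 127 TPM against 180 and 212, and neither it nor the TFIIE genes Gtf2e1 and Gtf2e2 passed. For polymerase I, SL1 had Taf1b and Taf1d lower, the first lost without mDKO replicate 2 (adjusted p = 0.0619) and the second without control replicate 1 or mDKO replicate 1 (0.0714 and 0.0773). For polymerase III, TFIIIC had Gtf3c4, Gtf3c5 and Gtf3c6 lower, the last from 157 and 159 TPM to 97.2 and 97.3. Gtf3a, which is TFIIIA and serves 5S genes, was higher, from 26.2 and 26.8 to 34.9 and 46.6, a call lost without either control library or mDKO replicate 2 (adjusted p 0.0736 to 0.248). Gtf3c1, Gtf3c2, Gtf3c3, Gtf2i, Gtf2ird1, Taf1a and Taf15 did not pass, and Gtf2ird2 and Taf1c, at most 0.863 TPM, were not tested.

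Neighbouring genes of the same machinery, taken from lists of TBP relatives, polymerase I and III factors, the rest of TFIIH, elongation and assembly factors, mitochondrial transcription and Mediator, gave 36 lower and 8 higher of 77 tested at L2C. All 5 genes of the polymerase I list were lower. The list also holds polymerase I subunits under older symbols, which the symbol rule missed. One of them, Znrd1, was at a mean of 534 TPM in control and 150 in mDKO (-1.82 ± 0.16). Ubtf, which opens ribosomal DNA, was at -1.25 ± 0.20. Of the TBP family Tbp was lower (137 against 85.8 TPM, -0.67 ± 0.14) and Tbpl2, the oocyte form of TBP, higher (6.43 against 15.5 TPM, 1.19 ± 0.27). Mediator had 10 lower and 4 higher of 31, from Med11 at -2.04 ± 0.12 to Med30 at 2.48 ± 0.15. In the TFIIH kinase module Cdk7, Ccnh and Mnat1 were lower. Of all genes 42.4% were called at L2C. At E2C the same lists gave 2 higher and 3 lower of 72, where 14.4% of all genes were called, and at MII none of 78 passed, where 4.25% of all genes did.

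Other markers moved with the genotype at L2C. The 6 early 2-cell genes of the marker list were all higher in mDKO, with a sum of 770 and 573 TPM in control against 2442 and 1963 in mDKO. Of the 8 oocyte and early embryo genes 6 were higher and 1 lower, with a sum of 17430 and 14940 against 23910 and 24720 TPM. Of the 4 blood genes tested, Hba-a1 and Hba-a2 were lower and the others did not pass. The blood sum was 308 and 360 TPM in control against 67.4 and 291 in mDKO, so the mDKO replicates differed widely. Ptprc, 1 marker of white blood cells on that list, was at most 0.106. Serpine2 was the 1 cumulus gene of 3 tested that was higher, with list sums of 28.7 and 34.4 against 85.1 and 82.7 TPM. At E2C the early 2-cell sum had gone the other way, 1181 and 1705 in control against 258 and 283 TPM. The part of these differences in the members' values was not tested.

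The E2C and L2C effects differed by a direct test for many members. The interaction contrast, fitted on the 12 uninjected libraries, called 32 of 73 members, 27 more negative and 5 more positive at L2C. This is 43.8% against 25.7% of all genes, with medians of -0.57 and 0.09, and scaling by size factors gave 30 and 5. Polr3k had the largest difference between stages (-2.61 ± 0.20, adjusted p = 2.99e-05): it was higher in mDKO at E2C and lower at L2C. In control it climbed from 74.2 and 72.4 TPM to 561 and 625, and in mDKO from 163 in each library to 214 and 211. Of the shared subunits 4 of 5 were called (not Polr2e), of polymerase III 6 of 10, and of TFIIF both. Gtf2a2, Taf9b and Taf12 had more positive effects at L2C, and so did Gtf2ird1, which was lower in mDKO at E2C and at 7.07 and 8.70 against 4.25 and 5.25 TPM at L2C.

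Seen within each genotype, the rise from E2C to L2C was made by 48 members in control and 36 in mDKO, 64.4% of 73 being called in mDKO in either direction against 52.7% of all genes. The rises shared 34 genes, 70.8% of the control list and 94.4% of the mDKO list. The same overlap was not counted over all genes, so it is unknown if such sharing is particular to the members. Members called higher in control only included both TFIIF genes, Gtf2h1, Gtf2h2, Polr2d, Polr3a, Polr3d, Taf1 and Taf1b. Of these Gtf2h2 fell in mDKO (-1.22 ± 0.18), as did Taf7 (-0.48 ± 0.12), the only pair called in opposite directions among the control rises. The falls shared 7 genes, and Taf12 fell in control and rose in mDKO. Being called in 1 genotype and not in the other is not a test of the difference; that test is the interaction above, which compares the mDKO effect at both stages.

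The promoters of 4 members at the 2 ends of the L2C difference are shown because they hold the genes with the largest fall (Polr2h), the largest rise (Gtf2a2) and a pair of paralogues that went opposite ways (Taf9 lower, Taf9b higher). Each is the 250 bases before the most upstream start listed by RefSeq for GRCm38.p6, 5′ to 3′ on the gene's strand. Capitals mark matches to GGGCGG, known as a GC box. They also mark matches to TATAAA, known as a TATA box, and both strands were searched for each. Polr2h lies at chr16:20717576-20717825 on the plus strand, Gtf2a2 at chr9:70012298-70012547 plus, Taf9 at chr13:100651093-100651342 plus and Taf9b at chrX:106221159-106221408 minus. In the same annotation the genes themselves span chr16:20717826-20722272 (Polr2h), chr9:70012548-70022866 (Gtf2a2) and chr13:100651343-100656060 (Taf9).
Polr2h: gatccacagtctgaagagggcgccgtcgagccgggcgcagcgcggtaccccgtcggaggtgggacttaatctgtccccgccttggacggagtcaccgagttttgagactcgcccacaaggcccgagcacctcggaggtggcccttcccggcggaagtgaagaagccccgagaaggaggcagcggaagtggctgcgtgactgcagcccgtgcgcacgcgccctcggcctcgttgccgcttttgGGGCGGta
Gtf2a2: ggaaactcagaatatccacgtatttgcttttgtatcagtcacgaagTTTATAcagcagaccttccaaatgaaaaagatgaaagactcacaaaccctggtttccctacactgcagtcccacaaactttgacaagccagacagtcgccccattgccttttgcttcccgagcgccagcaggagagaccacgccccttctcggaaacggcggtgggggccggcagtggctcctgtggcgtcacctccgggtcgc
Taf9: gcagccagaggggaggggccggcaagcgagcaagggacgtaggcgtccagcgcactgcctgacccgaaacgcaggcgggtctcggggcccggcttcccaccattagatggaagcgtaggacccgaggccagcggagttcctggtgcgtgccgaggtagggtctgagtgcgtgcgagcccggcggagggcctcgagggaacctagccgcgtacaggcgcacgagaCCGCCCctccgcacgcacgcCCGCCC
Taf9b: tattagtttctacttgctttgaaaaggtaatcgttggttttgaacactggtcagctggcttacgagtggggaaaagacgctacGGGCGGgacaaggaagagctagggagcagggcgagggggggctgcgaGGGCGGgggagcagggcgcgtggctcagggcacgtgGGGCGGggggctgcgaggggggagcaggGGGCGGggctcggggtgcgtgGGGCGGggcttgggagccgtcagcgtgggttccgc
The Polr2h window had 28 CpG and 67.6% GC with 1 GC box, Taf9 29 CpG and 71.6% with 2, Taf9b 20 CpG and 66.8% with 5, and Gtf2a2 13 CpG and 54.0% with no GC box and 1 match to TATAAA.

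Promoters of 64 members were listed. Their median GC content was 60.8% and their median CpG count 19, against 52.0% and 6 over all 27025 promoters of the table. The letters CCGGAAG, bound by ETS factors, were in 29.7% of the member promoters and 7.07% of all, and GGGCGG in 59.4% and 33.0%. CCAAT was in 29.7% and 34.5%, TATAAA in 12.5% and 13.0%, GCCATNTT (YY1) in 6.25% and 3.91%, and TAATCC in 9.38% and 6.37%. AAGGTCA was in none of the 64, and in 4.04% of all. Both strands were searched, and no motif searched contains another. Between the 29 listed promoters of members lower at L2C and the 11 of members higher, the GC box was in 65.5% and 63.6%, CCGGAAG in 31.0% and 27.3%, and TATAAA in 2 and 4 promoters. These are counts of letters in the window only.

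Injected E2C embryos repeat the genotype comparison in separate libraries. Of 66 members tested, 21 were higher and 12 lower in mDKO with mCherry than in control with mCherry, 50% against 46.9% of all genes. All 3 members lower in uninjected mDKO E2C were lower again, and 4 of 8 higher ones were higher again; none was called in the opposite direction. Of all genes tested in the injected comparison, 26.9% were called higher and 20% lower. Gtf2ird1 was at 40.0 and 41.4 TPM in control against 6.40 and 6.62 in mDKO (-2.47 ± 0.22, adjusted p = 6.69e-05). Polr3k was at 72.4 and 76.8 TPM against 162 and 154 (1.07 ± 0.09, adjusted p = 3.60e-05). Taf9 fell from 1819 and 1855 TPM to 1261 and 1288 and Taf12 from 397 and 403 to 272 and 279.9. Ak6 again moved with Taf9, at 28.4 and 23.4 TPM against 15.8 and 13.4 (-0.78 ± 0.15, adjusted p = 0.00345). Taf1a, Taf13 and Gtf2a1l were higher again. Gtf2b, higher in uninjected mDKO, was at 957 and 1017 TPM in control against 775 and 811 in mDKO here and did not pass.

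The largest differences of this comparison went with low values in the injected control. Taf10 was at 20.1 and 17.6 TPM in control with mCherry and 319 and 331 in mDKO with mCherry (4.04 ± 0.39, adjusted p = 9.60e-05), and Gtf3a at 4.34 and 3.92 against 54.5 and 45.6 (3.31 ± 0.28). In the uninjected table, which was made separately so that no test joins them, control E2C had 432 and 444 TPM of Taf10 and 33.7 and 35.8 of Gtf3a, and there neither passed between genotypes. Taf10 overlaps exons of Ilk on the other strand and Gtf3a those of Mtif3. Ilk was at 2.51 and 2.96 TPM in injected control and 14.7 and 13.5 in injected mDKO (2.02 ± 0.17), and Mtif3 at 18.8 and 16.0 against 16.1 and 16.6. The cumulus marker sum also moved, from 82.5 and 73.9 TPM to 343 and 333, mostly through Serpine2 (mean 56.7 against 309 TPM). Of its 12 genes 5 were tested, 2 were higher and 0 lower. Inha was higher too, at a mean of 0 TPM in control and 6.31 in mDKO (adjusted p = 1.80e-05). Foxl2, Amh and Lhcgr were at 0 in all 4 libraries. Cyp19a1 was at a mean of 19.4 TPM in control and 19.0 in mDKO, and Cyp11a1 at 0.0853 and 0.789, and neither passed. Among blood genes Lyz2 was higher (1.24 against 24.3 TPM) and Hba-a1 lower (4.53 against 0.409). Among sperm genes Prm1 was higher (0 against 1.505) and Prm2 lower (37.3 against 4.87). The part of these markers was not tested. Of the 30 called members that the naming rule picked, 15 kept the call without each library in turn, and the count of called members fell to 17 without mDKO mCherry replicate 1 and 21 without replicate 2. Gtf2ird1, Polr3k, Taf9, Taf12, Taf10 and Gtf3a were among the 15.

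**Figure D3:**
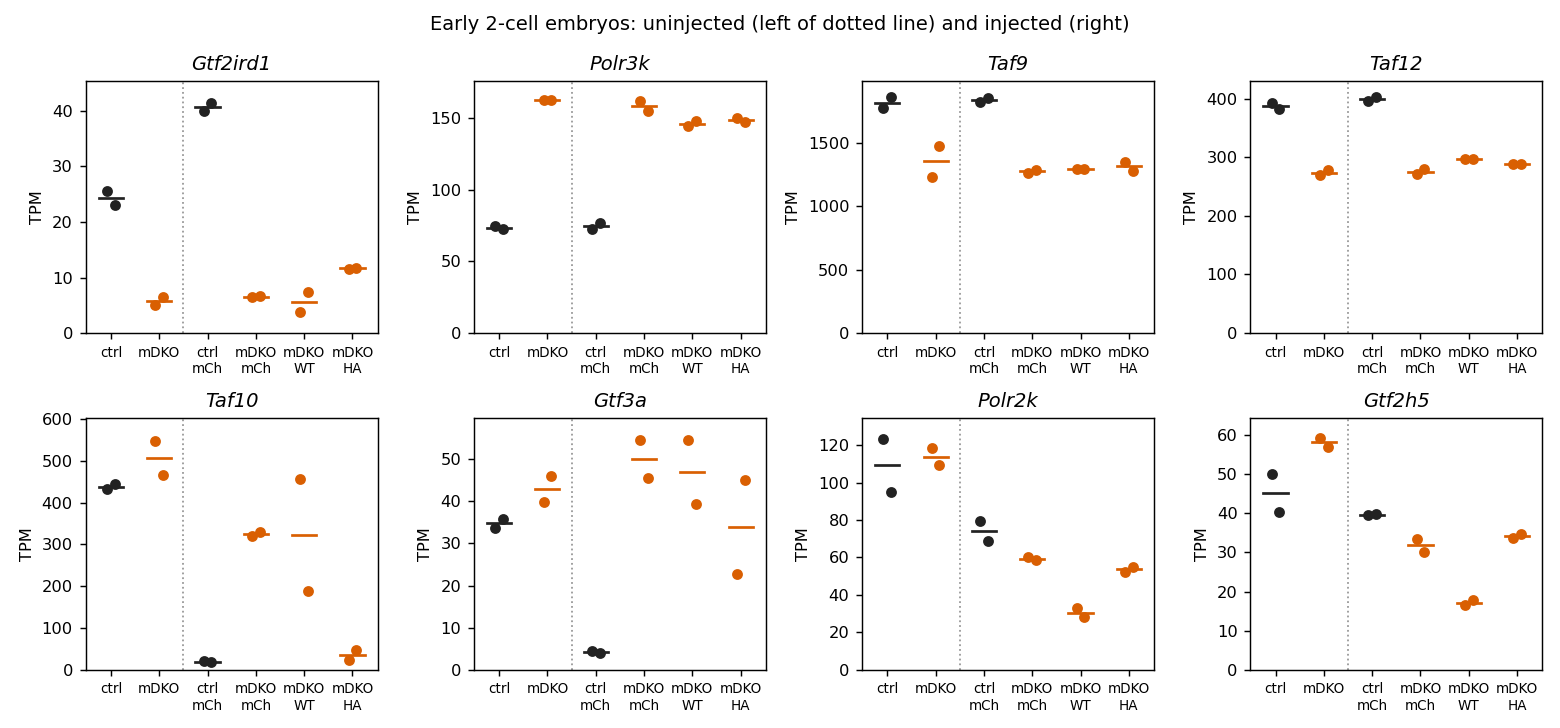
TPM of 8 members in E2C libraries, uninjected (left of the dotted line) and injected with mCherry (mCh), Kdm3aWT (WT) or Kdm3aHA (HA); points are libraries, lines their mean, black is control and orange mDKO. Gtf2ird1 is low and Polr3k high in every mDKO library, while Taf10 and Gtf3a are low in the injected control and not in the uninjected control, a separately made table.

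Giving Kdm3aWT to mDKO embryos was measured against mCherry in the same background. Kdm3a, at 0.262 and 0.411 TPM with mCherry, was at 4122 and 2315 after Kdm3aWT and at 4043 and 3907 after Kdm3aHA. Some cumulus, blood and sperm markers were higher with mCherry than after either Kdm3a injection. Lyz2 was at a mean of 24.3 TPM with mCherry, 0.157 after Kdm3aWT and 0.354 after Kdm3aHA. Inha was at 6.31, 0 and 0, Prm1 at 1.505, 0 and 0, and Serpine2 at 309, 227.5 and 226. Prm2 went the other way, at 4.87, 10.4 and 15.7. The part of these markers in the contrasts with mCherry was not tested. With Kdm3aWT 12 of 66 members differed, 2 higher and 10 lower, 18.2% against 11.8% of all genes (0.949% higher and 10.8% lower). The median of all genes was itself -0.19 and moved to -0.02 under scaling by size factors, where 3 members were higher and 5 lower. Among the lower were Polr2k, at 60.2 and 58.6 TPM with mCherry against 32.8 and 28.0 after Kdm3aWT (-0.95 ± 0.12, adjusted p = 0.00254), and Gtf2h5, at 33.5 and 30.1 against 16.6 and 17.8 (-0.85 ± 0.11). Both are lower in mDKO than in control at L2C. Taf1b, Polr2b, Gtf2f1, Gtf2e1, Taf1a, Gtf2h1, Taf7 and Taf6l were lower and Polr2g and Polr2j higher. No member kept its call without each library in turn: 0 members were called without mDKO mCherry replicate 1 and 2 without mDKO mCherry replicate 2.

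Gtf2ird1 and Polr3k were called in the same direction in mDKO in MII oocytes, uninjected E2C and injected E2C, and with Kdm3aWT both still differed from the injected control. Gtf2ird1 was at 3.88 and 7.34 TPM with Kdm3aWT against 11.49 and 11.8 with Kdm3aHA, and Polr3k at 144 and 147 and at 150 and 147. Against control with mCherry, mDKO with Kdm3aWT differed in 38 of 66 members, 15 higher and 23 lower, 57.6% against 46.6% of all genes (17% higher and 29.6% lower). Scaling by size factors moved the median of all genes from -0.17 to -0.03 and gave 19 higher and 18 lower. Gtf2ird1 was 2.71 ± 0.22 lower on the log2 scale and Polr3k 0.96 ± 0.08 higher. Taf9, Taf12 and Taf9b remained lower and Taf13 and Gtf2a2 higher, and Polr2k (-1.26 ± 0.12) and Gtf2h5 (-1.16 ± 0.11) were further below control than with mCherry (-0.31 ± 0.11 for Gtf2h5, with Polr2k at 79.7 and 68.6 TPM in control). These contrasts share the control or the mCherry libraries and are given side by side only.

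With Kdm3aHA 6 members were lower than with mCherry and none was higher, 9.09% against 10.8% of all genes (1.54% higher and 9.29% lower); scaling by size factors gave 4 lower and 2 higher. Taf10 was at 24.1 and 46.4 TPM with Kdm3aHA against 319 and 331 with mCherry (-3.24 ± 0.39, adjusted p = 0.00176), and at 458 and 188 with Kdm3aWT. Taf10 kept its call without each library. Taf5 was at 32.3 and 33.1 TPM against 59.8 and 61.9 (-0.88 ± 0.13), lost without mDKO mCherry replicate 2 (adjusted p = 0.0527). The others were Polr2m, Taf6l, Polr1e and Taf5l. The count was 2 without mDKO mCherry replicate 1, 1 without mDKO mCherry replicate 2 and 2 without Kdm3aHA replicate 1.

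Tested against each other, Kdm3aWT and Kdm3aHA differed in 8 members, 12.1% against 3.29% of all genes (1.32% higher and 1.97% lower). Polr2b, Gtf2h5, Taf1b, Polr2k, Gtf2f1 and Polr2d were lower with Kdm3aWT, and Taf10 and Taf5 higher. Gtf2h5 was at 16.6 and 17.8 TPM with Kdm3aWT against 33.8 and 34.7 with Kdm3aHA (-0.95 ± 0.11, adjusted p = 0.0132). No call held without each library: 3 members were called without Kdm3aWT replicate 1, 17 without Kdm3aWT replicate 2, 1 without Kdm3aHA replicate 1 and 0 without Kdm3aHA replicate 2. The median of all genes was -0.10 and moved to 0.01 (0.005 before rounding) under size factors, where 6 members differed.

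In wild-type 4C embryos no member differed between the injected constructs by limma, with 71 tested, and 0% of all genes were called in each of the 3 contrasts. Unadjusted p was under 0.05 for 776 genes with Kdm3aWT against mCherry, 264 with Kdm3aHA against mCherry and 227 between the constructs. The medians of all genes in these contrasts were 0.44, 0.35 and 0.08, and 0.07, 0.05 and 0.01 (0.006 before rounding) after scaling by size factors, where again no member was called. The Kdm3a level was 21.8 and 6.24 TPM after mCherry, 108 and 53.4 after Kdm3aWT, and 70.5 and 161 after Kdm3aHA. Without the 4C mCherry replicate 1, which leaves the library that stood apart as the sole control, 7 members were called for Kdm3aWT, 6 higher and 1 lower. The shared subunits were abundant in 4C, with a class sum of 5302 to 8299 TPM. Polr2k was at 1557 and 3211 TPM after mCherry, 1413 and 1867 after Kdm3aWT, and 1662 and 1585 after Kdm3aHA. Gtf2b, by contrast, was at 39.1 to 72.8 TPM and Gtf2ird1 at 0.260 to 1.57 in the 6 libraries.

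Several subunits exist in 2 alternative forms, in only some pairs with a form enriched in oocytes or germ cells, and the balance shifted over the stages. In the Taf4a and Taf4b pair Taf4b made 5.81% and 6.16% of the pair's TPM in control MII oocytes, 35.6% and 35.5% at E2C and 71.1% and 67.8% at L2C. In mDKO L2C it made 46.2% and 48.0%, below both controls. Taf9b made 31.7% of its pair with Taf9 in each control MII library, 15.3% and 15.2% at E2C and 1.43% and 1.55% at L2C, against 5.84% and 6.69% in mDKO L2C. Gtf2a1l made 22.3% and 15.9% of its pair with Gtf2a1 at MII, 5.53% and 5.91% at E2C and 2.52% and 1.15% at L2C, against 5.34% and 6.99% in mDKO L2C. Polr3gl made 68.1% and 27.9% of its pair with Polr3g at MII, where neither gene exceeded 2.79 TPM in control and the replicates differed widely. It made 20.6% and 18.9% at E2C and 2.67% and 2.61% at L2C, against 10.2% and 9.08% in mDKO L2C. In 3 of these 4 pairs the mDKO L2C share lay between the control E2C and control L2C shares. For Gtf2a1l mDKO replicate 2 exceeded both control E2C values. In mDKO E2C the shares were 23.1% and 30.7% for Taf4b, 14.6% and 16.4% for Taf9b, 9.96% and 13.6% for Gtf2a1l, and 28.7% and 43.1% for Polr3gl. From there to L2C each mDKO share moved in the same direction as in control. Taf7l, a germ-cell form of Taf7, was at 0 in both control MII libraries and made 0.713% and 1.16% of its pair at E2C and 1.33% and 1.11% at L2C, against 1.74% and 1.18% in mDKO L2C; the control stages overlapped in this pair. Reads shared between paralogues may be split by the authors' counting, so these shares are uncertain.

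**Figure D4:**
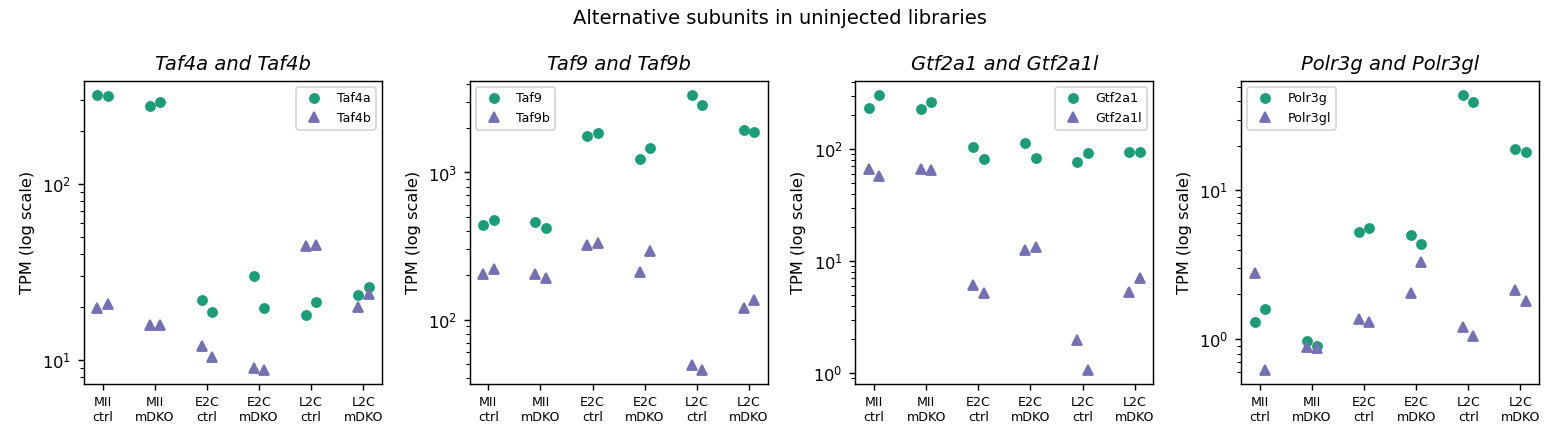
TPM on a log axis of 4 pairs of alternative subunits in the 12 uninjected libraries (circles, the first gene; triangles, its paralogue; 2 points per group). Taf9b drops to 49.0 and 45.6 TPM in control L2C but stays at 121 and 135 in mDKO, and Taf4b reaches 44.6 and 45.2 TPM in control L2C against 20.1 and 23.9 in mDKO.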

How the data were processed

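RNA-seq of 26 mouse libraries in 13 groups of 2 was analysed from 3 tables of TPM values deposited by the authors, normalised separately, so that tests stayed within a table. Per the submitters' processing notes, the tools were RSEM 1.3.1, STAR 2.7.10b, SAMtools 1.9 and Bowtie2 2.3.4.1, on the mm10 build. The sources used here do not say how strand was treated in counting. TPM values keep no depth. From them, log2(TPM + 1) was tested with limma 3.58.1 in R 4.3.3 (eBayes with trend, two-sided, Benjamini-Hochberg over all genes with at least 1 TPM in at least 2 libraries of the fit, called at an adjusted p under 0.05). MII, E2C and L2C were fitted apart for the genotype effect, the 12 uninjected libraries together for stage and interaction, and each injected table as a whole. The fit was tested on simulated data.

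Within each class the naming rule picked the called members with the largest changes, up to 3 each way. They needed a mean of at least 5 TPM in 1 compared group. Catalytic subunits and pairs of alternative subunits were always picked. Not every gene picked is printed for every comparison, so a gene left unmentioned may still have been called. A called or uncalled member named beyond this rule was chosen after its values were seen. The members, classes and lists were chosen with earlier results of these data known. Alternatives were another pseudocount (0.1), no filter on low values, scaling by size factors, the replicate number as a block, other sets of libraries in the fit, and leaving out each library. Sequences are from RefSeq for GRCm38.p6; 73 members matched by symbol and 1 by a synonym, and 64 have a promoter listed. The values of 1 member are not reported here on their own.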

Additional observations from a re-analysis of the deposited data

Results flagged for a closer look

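The effect of maternal loss of Kdm3a and Kdm3b was set against itself at the late and early 2-cell stages (L2C minus E2C, log2 scale, interaction contrast of limma on the 12 uninjected libraries). Of the called members that the naming rule picked, 28 differed between the stages, and 18 of them kept the call without each of the 8 E2C and L2C libraries in turn. Among subunits shared by the polymerases the difference was -2.04 for Polr2h, -1.52 for Polr2k and -1.46 for Polr2l. For polymerase I it was -1.34 for Polr1e and -0.995 for Polr1a. For polymerase II it was -1.76 for Polr2i and -1.63 for Polr2d, and 0.73 for Polr2c. For polymerase III it was -2.61 for Polr3k, -1.29 for Polr3a, -1.26 for Polr3b and -0.96 for Polr3g, and Gtf3c1 of TFIIIC had -1.27.

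In TFIIF it was -1.84 for Gtf2f1 and -1.22 for Gtf2f2, and in TFIIH -2.17 for Gtf2h5, -1.85 for Gtf2h2 and -1.30 for Gtf2h1. SL1 had -1.75 for Taf1b and -0.83 for Taf1a. TFIID had -1.48 for Taf1, -1.04 for Taf7, -1.01 for Taf8 and -0.71 for Taf4b, with 1.81 for Taf9b and 1.21 for Taf12 in the other direction. Gtf2a2 of TFIIA had 1.40 and Gtf2ird1 1.27.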

How the results depend on the processing

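No named member reversed its direction while called under any alternative run. Apart from the replicate block, counts of called members moved by over 1.5 times as follows. In MII oocytes 3 members were called, against 1 with no filter on low values, 5 with the 12 uninjected libraries in 1 fit and 1 to 4 without each library. At E2C 11 were called, against 2 with no filter and 2 to 16 without each library. With injection, the 33 called in mDKO mCherry against control mCherry became 17 to 29 without each library. The 12 called for Kdm3aWT against mCherry became 0 to 14, and the 6 for Kdm3aHA 1 to 5, or 3 with no filter. The 8 between Kdm3aWT and Kdm3aHA became 0 to 17, 1 with no filter and 0 with only the compared groups in the fit. In 4C the count for Kdm3aWT against mCherry was 0 to 7. Over all alternatives L2C gave 36 to 48 called members, the interaction 24 to 35 and the rise or fall from E2C to L2C in control 55 to 61. The cause of these shifts was not tested. Where leaving out a library left 1 in a group, that library was assumed to vary like the others. With TPM alone, depth sets no limit that can be given.

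The labels do not say if same-numbered libraries share more than the number. Differences between replicates correlated at 0.359 between genotypes at MII, -0.0187 at E2C, 0.0502 at L2C and -0.116 between Kdm3aWT and Kdm3aHA. With the replicate number as a block, 13 members were called at MII in place of 3, the 1 count that the block moved by over 1.5 times, 13 at E2C, 47 at L2C, 33 in the interaction, 34 in mDKO mCherry against control mCherry, 9 for Kdm3aWT, 5 for Kdm3aHA, 7 between them and 0 in each 4C contrast.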
